A study of Mus musculus with 18 samples.

Results

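In these arrays the same enzyme, Ezh2, was given to the same fibroblast clone either before or after the cell's own Ezh2 gene was deleted, and the comparison is between 2 arrays of the first kind (pre-rescue) and 2 of the second (post-rescue), chosen by their titles from 18 arrays in all. The cells, called C2 iMEFs, are embryonic fibroblasts of the mouse that c-Myc transformed, grown from 1 clone of male cells, and their genotype is Ezh2 flox/Δ;ROSA26-CreERT2. All arrays of the rescue experiment come from this clone, so 1 Ezh2 allele is missing even in the control, every cell carries the retroviral c-Myc, and 4-hydroxytamoxifen (OHT) makes the Cre enzyme remove the remaining allele. Besides the pre-rescue and post-rescue groups, the rescue experiment holds the control, the Ezh2 -/- group (called Ezh2 null below) and a group rescued with Ezh1 before deletion, with 2 arrays in each of the 5 groups. In both Ezh2 rescue groups a retrovirus drove Flag-tagged Ezh2 and its carriers were selected with hygromycin. A separate time course of 8 arrays of the same clone, with vehicle and at day 5, 18 or 32 after tamoxifen, was used only to look up genes. The time of supply cannot be told apart from the time since deletion or from the order of infection and drug, which differ between the groups by construction. The study calls the replicates of its pre-rescue analysis biological, neither it nor the labels say so of the post-rescue arrays, and all come from 1 clone, so p-values cover the spread between arrays of this clone, which may in part be technical.

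Ezh2 is the catalytic subunit of Polycomb repressive complex 2 (PRC2), which methylates lysine 27 of histone H3 (H3K27me3) at the promoters of silent developmental genes. The mark is copied onto new nucleosomes at each cell division, partly because PRC2 binds the mark it makes, and PRC2 is drawn mainly to CG-rich promoters that are not transcribed. Post-rescue against pre-rescue compares cells given Ezh2 after the deletion with cells given it before. The comparison holds no array of cells without Ezh2. By itself it therefore cannot show whether a gene switched on during the loss is silenced again when the enzyme returns.

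All values below are log2 array levels as deposited, so a difference of 1 is 2-fold, and a gene was called when limma's moderated test on all 10 rescue arrays gave a Benjamini-Hochberg adjusted p under 0.05 over all 18820 genes together with a change of at least 2-fold. Replicate arrays correlated at 0.994 to 0.998 and their medians lay between 6.5 and 6.66. Between the replicates, 5 genes of the pre-rescue pair and 6 of the post-rescue pair differed by 2-fold or more, against 94 in the control pair and 109 in the Ezh2 null pair. The median standard error (SE) of a difference between groups was 0.10. Fibroblast markers had a mean level of 10.2, 10.2, 10.2 and 10.0 on the 2 pre-rescue and 2 post-rescue arrays, and none of the 12 markers was called. The lists of epithelial, endothelial, blood cell, neuronal, glial, skeletal muscle and pluripotency markers also held no gene that passed the test, and their mean levels on the 4 arrays lay between 5.00 and 7.36.

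The Ezh2 transcript itself was at 12.26 and 11.84 in pre-rescue and at 12.55 and 12.12 in post-rescue, a difference of 0.28 ± 0.17 (SE, n = 2 arrays per group, limma adjusted p = 0.52). Both rescue groups lay above the control (10.36 and 10.56) and the Ezh2 null (10.46 and 10.48), and the groups of 2 rescue arrays overlapped. The array's Ezh2 probe set did not register the deletion, since Ezh2 null and control differed by 0.01 ± 0.17, so it checks the supply of the transgene and not the loss of the own gene. Its relative Ezh1 differed by -0.18 ± 0.16 (adjusted p = 0.67). Of the 11 PRC2 subunits measured, 1 passed the test: Phf19, an accessory subunit that helps PRC2 reach its targets, was at 6.03 and 5.95 in pre-rescue and 7.27 and 7.07 in post-rescue, 1.18 ± 0.09 higher (adjusted p = 0.0029). Of all genes, 0.574% were higher and 0.308% lower past the test at any fold. The Ezh2 null exceeded the control in Phf19 by 1.22. Eed and Suz12, core subunits, differed by 0.18 and 0.26 with adjusted p of 0.43 and 0.20.

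Among genes past the test, the largest differences between cells that received Ezh2 after deletion and cells supplied beforehand were those of Foxp2, Rorb and Plag1, which were higher, and of Edil3, Dhrs3 and Eln, which were lower. In all, 56 genes were higher (0.298% of the genes tested) and 23 were lower (0.122%) in post-rescue than in pre-rescue. Without the 2-fold limit the test passed 108 higher genes (0.574%) and 58 lower genes (0.308%). Over all genes the median difference was -0.01. Within each replicate number taken alone, 48 of the 56 higher genes and 21 of the 23 lower genes differed by 2-fold or more both times. Because the genes were chosen on these same arrays, this is a description and no separate check. Of all genes, 72 were higher and 60 lower by 2-fold or more both times. With the 2 scaling alternatives the share of higher genes among the calls changed from 70.9% to 58.4% when each array was centred on its median (73 higher, 52 lower, with the median of all genes at -0.07) and to 61.3% after quantile normalization (57 and 36). Without the replicate number as a block there were 75 higher and 39 lower genes. The counts rested on each of the 4 arrays. Without post-rescue replicate 1 or 2 there were 17 or 32 higher and 2 or 9 lower genes, and without either pre-rescue replicate 6 higher and 1 lower. Plag1, Chchd7, Epha3, Ppef1 and Pax9 were called in all 9 of these settings, which also include the fits without the 30% of dimmest genes and with the mean of a gene's probe sets.

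**Figure D1:**
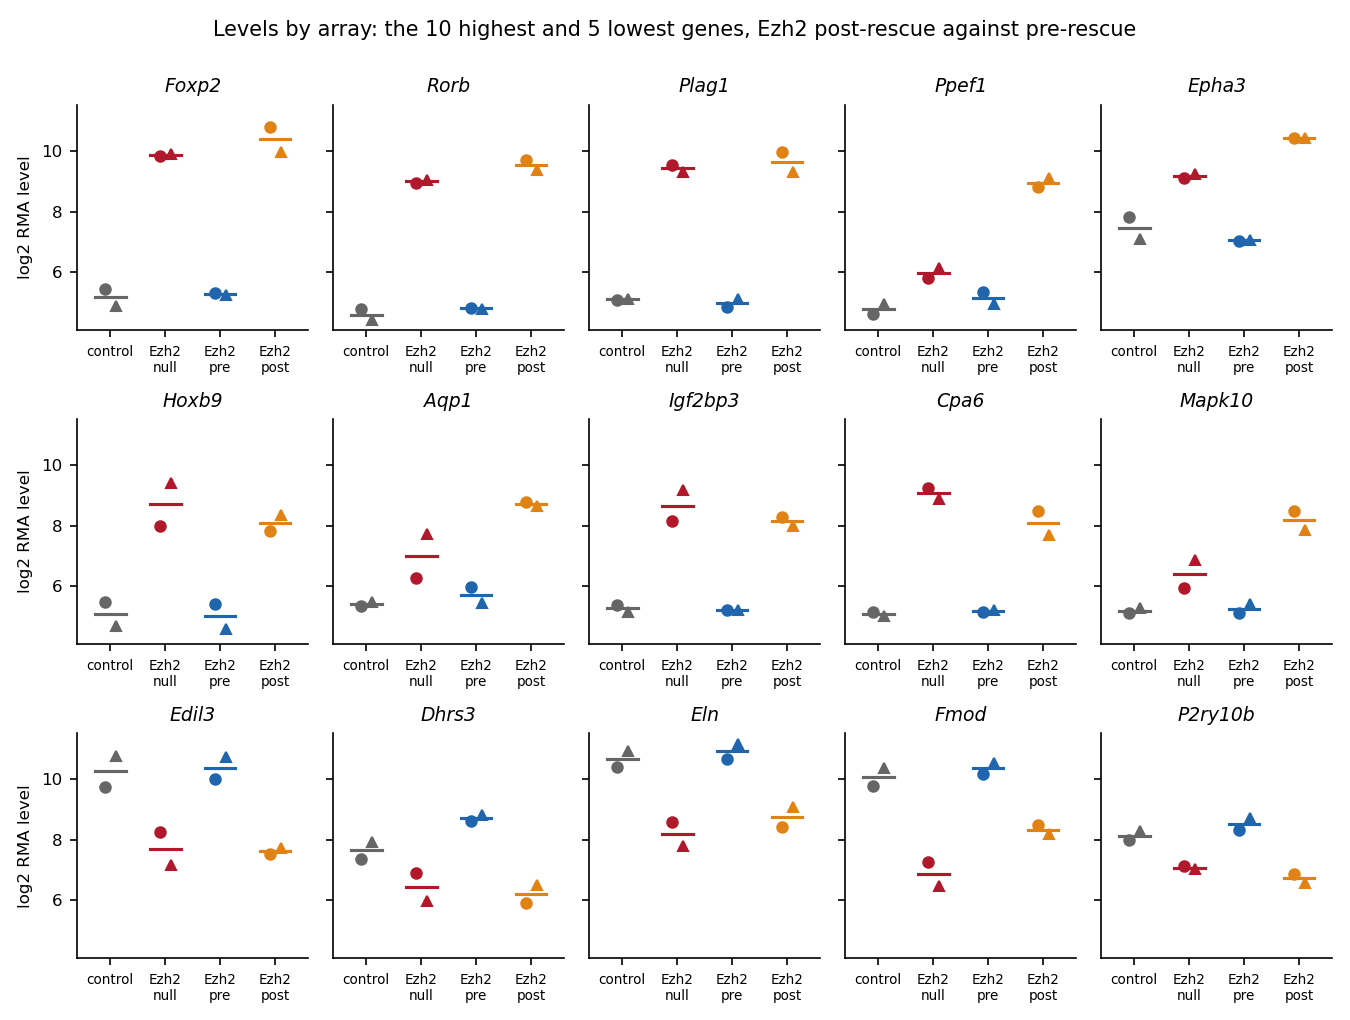
Log2 level (vertical axis) on each array of 4 groups (horizontal axis), for the 10 genes with the highest and the 5 with the lowest difference, post-rescue minus pre-rescue, among those past the test. Circles are replicate 1, triangles replicate 2 and bars the group means. Foxp2, Rorb and Plag1 sat near 5 in control and pre-rescue and between 8.94 and 10.79 in Ezh2 null and post-rescue, and Ppef1 was above 8 in post-rescue alone of the 4 groups.

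The genes with the 3 largest rises all encode transcription factors. Foxp2, a forkhead factor best known from the developing brain, was at 5.31 and 5.25 in pre-rescue and at 10.79 and 9.98 in post-rescue, 5.11 ± 0.66 higher (adjusted p = 0.019). The error is shared with the other groups of the fit, and the Ezh1-rescued arrays lay apart in this gene, at 6.14 and 8.54. Rorb, an orphan nuclear receptor of the retina and cortex, went from 4.83 and 4.78 to 9.72 and 9.37, a difference of 4.74 ± 0.35 (adjusted p = 0.0029). Plag1, a zinc finger factor of fetal tissues, went from 4.84 and 5.11 to 9.97 and 9.32, a difference of 4.68 ± 0.25 (adjusted p = 0.0013). Pre-rescue levels of these 3 genes lay near those of the control arrays, which ranged from 4.42 to 5.44. The post-rescue arrays lay above both Ezh2 null arrays in Foxp2 and Rorb and overlapped with them in Plag1. Pax9, a paired-box factor of skeletal and tooth development, was at 5.72 and 5.88 against 8.05 and 7.72, which is 2.09 ± 0.14 higher (adjusted p = 0.0023). Of the 145 developmental transcription factors measured outside the Hox clusters, 5 were higher and 1 was lower at any fold. Over all genes the shares were 0.574% and 0.308%. The list includes the 4 factors named above and had a median of 0.01.

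Among the 36 Hox genes, which set position along the body axis, 5 were higher and none was lower at any fold. Over all genes 0.574% were higher and 0.308% lower. Hoxb9 was at 5.43 and 4.60 in pre-rescue and 7.83 and 8.36 in post-rescue, 3.08 ± 0.49 higher (adjusted p = 0.040). Hoxb5 (2.04 ± 0.17), Hoxb6 (1.57 ± 0.16), Hoxa10 (1.07 ± 0.14) and Hoxb13 (0.70 ± 0.08) also rose, and all but Hoxa10 belong to the Hoxb cluster. The list median was 0.03, near the -0.01 of all genes, and was -0.03 after median centring. In the Ezh2 null, 6 Hox genes were higher and 3 lower than in the control.

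To show the regulatory DNA of leading genes with an entry in the promoter table, the 250 bases before the annotated start are given for Rorb, Epha3 and Ppef1, 5′ to 3′ on the gene's strand, with every CG in capitals (RefSeq, GRCm38.p6). They lie at chr19:19111197-19111446 (minus strand), chr16:63864176-63864425 (minus strand) and chrX:160719973-160720222 (minus strand). Rorb has 2 annotated starts, and the one with more CG is shown. The promoters of Foxp2, Plag1, Chchd7, Hoxb5, Hoxb6, Hoxb9 and Cpa6 were not analysed here.
Rorb: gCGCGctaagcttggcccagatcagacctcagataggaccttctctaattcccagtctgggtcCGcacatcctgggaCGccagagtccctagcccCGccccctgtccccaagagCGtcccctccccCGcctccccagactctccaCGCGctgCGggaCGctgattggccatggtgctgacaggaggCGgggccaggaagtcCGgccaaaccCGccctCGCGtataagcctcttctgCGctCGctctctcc
Epha3: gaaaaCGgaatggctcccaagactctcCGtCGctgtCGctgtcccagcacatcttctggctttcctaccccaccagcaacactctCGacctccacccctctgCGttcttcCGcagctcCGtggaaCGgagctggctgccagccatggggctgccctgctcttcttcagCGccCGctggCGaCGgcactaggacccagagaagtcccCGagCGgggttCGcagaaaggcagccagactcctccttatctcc
Ppef1: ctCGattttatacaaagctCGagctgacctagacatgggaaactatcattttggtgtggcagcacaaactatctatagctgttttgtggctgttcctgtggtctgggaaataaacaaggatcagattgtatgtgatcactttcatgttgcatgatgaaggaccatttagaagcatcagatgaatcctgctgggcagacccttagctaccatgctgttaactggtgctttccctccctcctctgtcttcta
Rorb holds 18 CG and Epha3 16 in this window, while Ppef1 holds 2. For these counts each gene was represented by its annotated start with the most CG. Over the 14749 measured genes with a promoter in the table the median was 12, and 43.5% had 15 or more. Over all 32851 promoters of the table, without that choice, the median was 6. The 44 higher genes with a promoter had a median of 14.5 and 50% with 15 or more, and the 16 lower genes a median of 12 and 37.5%.

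Receptors and signalling proteins were also among the higher genes. Epha3, a receptor tyrosine kinase for ephrins that guides axons, was at 7.04 and 7.05 in pre-rescue and 10.44 on both post-rescue arrays, 3.40 ± 0.22 higher (adjusted p = 0.0023), and lay above the Ezh2 null as well (9.11 and 9.25). Ppef1, a calcium-binding protein phosphatase, was at 5.34 and 4.94 against 8.82 and 9.10, a difference of 3.82 ± 0.22 (adjusted p = 0.0016). Its Ezh2 null arrays reached only 5.80 and 6.12. Mapk10, the neuronal JNK kinase, was 2.92 ± 0.29 higher and the water channel Aqp1 3.00 ± 0.40 higher, and both post-rescue arrays exceeded both null arrays in each. The value of Mapk10 is that of the brighter of its 2 probe sets, and their mean gave 1.47 (adjusted p = 0.011). Epha3 and the guidance cue Sema3c (1.44 ± 0.21) were the 2 of 44 axon guidance genes that rose, and the list median was 0.03. The share of all genes higher at any fold was 0.574%. Il13ra1, a chain of the interleukin-13 receptor, rose by 2.34 ± 0.24, and Bmpr1b, a receptor for bone morphogenetic proteins, by 1.68 ± 0.15.

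Cpa6, a secreted carboxypeptidase that the study followed by RNA imaging, was at 5.14 and 5.22 in pre-rescue and 8.49 and 7.71 in post-rescue, 2.92 ± 0.35 higher (adjusted p = 0.015). Control cells had 5.13 and 5.02 and Ezh2 null cells 9.25 and 8.90, so the post-rescue arrays lay between them. Igf2bp3, a fetal RNA-binding protein, was at 5.2 and 5.23 against 8.3 and 8.0, a difference of 2.94 ± 0.29, and Fign, a microtubule-severing ATPase, differed by 2.75 ± 0.46 (adjusted p = 0.047). The Ezh2 null arrays lay at 8.15 and 9.18 in Igf2bp3 and at 5.64 and 7.27 in Fign.

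The higher genes included pairs that neighbour each other. Plag1 and Chchd7, which encodes a mitochondrial protein, lie next to each other on chromosome 4. Chchd7 was at 7.55 and 7.31 in pre-rescue and 9.87 and 9.66 in post-rescue (2.34 ± 0.11, adjusted p = 0.0010). Its control arrays were at 8.05 and 8.18 and its Ezh2 null arrays at 9.92 and 9.60. Both pre-rescue arrays thus lay below the control. Tmem176a and Tmem176b, overlapping genes for membrane proteins on chromosome 6, rose by 1.68 and 1.81 (named after their values were seen), and Hoxb5 and Hoxb6 lie side by side on chromosome 11. Of the 166 genes past the test at any fold, 14 stood in 7 such pairs of neighbouring measured genes. Both genes of each pair moved in the same direction. How many pairs 166 genes would form by position alone was not computed. Whether transcripts run from one neighbour into the other was not tested.

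Genes of the interferon response had a median above that of all genes. Of 39 measured, 34 were above 0, against 8682 of all 18820 genes. At any fold 4 were higher past the test and none was lower, against 0.574% and 0.308% of all genes. The list median was 0.36 against -0.01 over all genes. Rsad2, the antiviral enzyme viperin, was at 6.41 and 6.60 in pre-rescue and 8.80 and 8.92 in post-rescue, 2.36 ± 0.21 higher (adjusted p = 0.0059). Its neighbour Cmpk2, a mitochondrial nucleotide kinase, rose by 1.22 ± 0.15, and the guanylate-binding proteins Gbp7 and Gbp2, members of a family of close copies, by 1.04 ± 0.14 and 0.78 ± 0.11. Cxcl10, a chemokine induced by interferon, was at 9.08 and 8.71 against 10.06 and 10.21 (1.24 ± 0.16), and Aim2, a sensor of DNA in the cytosol that was picked after its values were seen, rose by 2.24 ± 0.21. At day 32 of the time course, which shares no array with these, Rsad2, Cmpk2, Gbp7 and Cxcl10 had differences of -0.67, -0.31, -1.54 and -1.5 against the vehicle, while Gbp2 and Aim2 had 0.53 and 1.86. In the Ezh2 null the differences of these 6 genes from the control were 1.54, 0.88, 0.66, 0.51, 1.48 and 1.12.

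The 250 bases before the start of these 4 interferon genes are shown because they carry, or lack, a match to the core of the interferon-stimulated response element, GAAANNGAAA on either strand, given in capitals. They lie at chr12:26456453-26456702 (Rsad2, minus strand), chr12:26468965-26469214 (Cmpk2, plus strand), chr3:142530086-142530335 (Gbp7, plus strand) and chr3:142620413-142620662 (Gbp2, plus strand).
Rsad2: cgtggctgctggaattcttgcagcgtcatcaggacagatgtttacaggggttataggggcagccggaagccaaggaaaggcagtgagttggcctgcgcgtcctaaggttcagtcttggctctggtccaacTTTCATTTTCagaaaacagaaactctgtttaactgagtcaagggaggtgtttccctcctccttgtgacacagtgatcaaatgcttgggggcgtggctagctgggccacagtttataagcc
Cmpk2: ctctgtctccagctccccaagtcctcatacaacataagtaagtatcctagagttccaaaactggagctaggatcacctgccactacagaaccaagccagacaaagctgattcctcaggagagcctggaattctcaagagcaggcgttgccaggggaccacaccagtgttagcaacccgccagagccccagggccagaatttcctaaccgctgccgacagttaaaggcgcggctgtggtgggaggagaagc
Gbp7: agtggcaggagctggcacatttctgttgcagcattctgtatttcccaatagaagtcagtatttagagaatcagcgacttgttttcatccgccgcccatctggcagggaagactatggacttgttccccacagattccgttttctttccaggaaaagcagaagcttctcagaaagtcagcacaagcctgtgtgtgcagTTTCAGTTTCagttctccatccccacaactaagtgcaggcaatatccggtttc
Gbp2: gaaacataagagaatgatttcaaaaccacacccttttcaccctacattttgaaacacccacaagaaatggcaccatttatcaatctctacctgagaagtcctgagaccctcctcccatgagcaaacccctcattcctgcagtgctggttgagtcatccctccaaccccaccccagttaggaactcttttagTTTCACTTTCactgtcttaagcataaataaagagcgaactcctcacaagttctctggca
Rsad2, Gbp7 and Gbp2 each hold 1 match and Cmpk2 none. The letters occur in 2.98% of all 32851 promoters of the table and, counted per measured gene with a promoter there, in 504 of 14749 (3.42%). They occur in 13 of the 29 such genes of the interferon list (44.8%), in 5 of the 44 higher genes (11.4%) and in 1 of the 16 lower genes (6.25%). Matches were sought in both directions, and a match may overlap a CG.

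Edil3, Eln and Fmod, which encode matrix proteins, were among the genes that fell most. Edil3, a matrix ligand of integrins, was at 10.01 and 10.75 in pre-rescue and 7.54 and 7.73 in post-rescue, a fall of 2.74 on the log2 scale (SE 0.42, adjusted p = 0.034). Eln, elastin, was at 10.66 and 11.19 against 8.42 and 9.09 (-2.17 ± 0.32), and Fmod, a collagen-binding proteoglycan, at 10.19 and 10.54 against 8.48 and 8.19 (-2.03 ± 0.30). Pre-rescue arrays overlapped with the control arrays in all 3 genes, and both post-rescue arrays lay below them. The list of matrix genes, which holds neither Edil3 nor Fmod, had a median of -0.14. Of its 46 measured genes Eln and Fbn2 (fibrillin-2, -0.72 ± 0.08) fell and none rose. Past the test at any fold, 0.308% of all genes fell and 0.574% rose. Large differences that did not pass were also present: Col11a1, a cartilage collagen, differed by -2.05 ± 0.39 (adjusted p = 0.068) and Igf2 by -2.55 ± 0.62 (adjusted p = 0.12).

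Dhrs3, a reductase of retinaldehyde, was at 8.63 and 8.82 in pre-rescue and 5.91 and 6.52 in post-rescue (-2.51 ± 0.34, adjusted p = 0.023). Its pre-rescue level was above that of the control, which was 7.37 and 7.95. Irs1, an adaptor of the insulin and IGF receptors, fell by 1.21 on the log2 scale, Pcsk6, a convertase that processes growth factors, by 1.24 and Faah, which degrades endocannabinoids, by 1.25. C1qtnf3, a secreted protein of the C1q and TNF family, was at 12.06 and 12.01 against 10.65 and 10.87 (-1.28 ± 0.09). Gpm6b, P2ry10b, Akap6 and Myo1d, which encode a membrane proteolipid, a G protein-coupled receptor, a kinase anchor and a myosin, fell by 1.25, 1.79, 1.5 and 1.23. The Wnt pathway receptors Fzd8 (-0.77 ± 0.11) and Lgr5 (-0.86 ± 0.14) were the 2 of 42 Wnt genes past the test. For comparison, 0.308% of all genes were lower at any fold. Tagln, a smooth muscle marker, fell by 0.46 (SE 0.08).

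Proliferation, Myc and cholesterol genes had list medians away from 0 although almost none passed by itself. All 34 proliferation genes had a difference above 0 (median 0.31, 11 at an unadjusted p under 0.05 and 0 at the adjusted threshold), with list means of 9.5 and 9.47 in pre-rescue and 9.93 and 9.68 in post-rescue. Of 35 genes of Myc targets and ribosome biogenesis, 34 were above 0 (median 0.18, 0 past the test, 8 at an unadjusted p under 0.05). Over all genes, 2706 of 18820 (14.4%) were at an unadjusted p under 0.05. All 19 genes of cholesterol synthesis were below 0 (median -0.37, 14 at an unadjusted p under 0.05), and Hsd17b7, which acts late in that pathway, was the only one past the test, at 11.72 and 11.70 against 11.03 on both post-rescue arrays (-0.69 ± 0.08). The cell cycle inhibitors Cdkn2a and Cdkn1a differed by 0.19 ± 0.08 and -0.25 ± 0.17, with adjusted p of 0.36 and 0.60. Median centring left 33, 31 and 0 genes of these 3 lists above 0, with medians of 0.25, 0.12 and -0.43. In hypoxia and glycolysis, 3 of 28 rose, against 0.574% of all genes at any fold. They were Aldoc, Car9 and Car12, an aldolase and 2 carbonic anhydrases. The median of this list was 0.06 and 17 of the 28 were above 0, against -0.01 and 8682 of 18820 over all genes. In the list plot each median stands beside the range of its members.

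**Figure D2:**
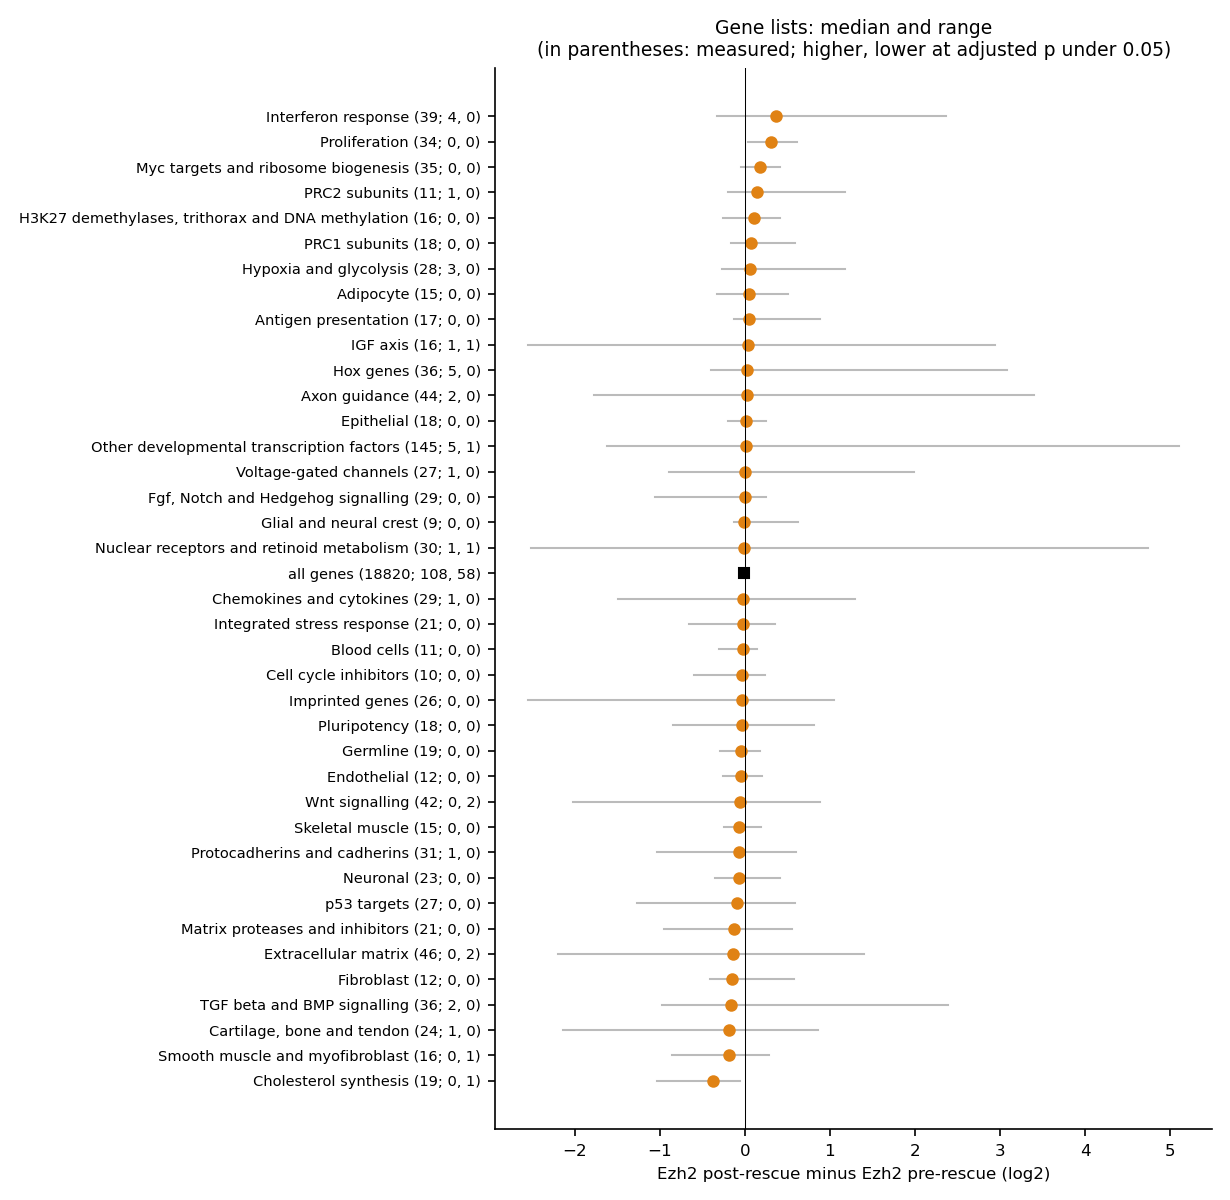
Median (point) and range (line) of the post-rescue minus pre-rescue difference on the log2 scale (horizontal axis) over the measured members of each gene list, with the black square for all genes. Numbers in parentheses are the measured genes and those higher and lower at any fold past the test. Interferon, proliferation and cholesterol genes had medians of 0.36, 0.31 and -0.37, and the Hox list had a median near 0 with members up to 3.08.

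The differences by time of supply were compared with the differences by loss of Ezh2, since Ezh2 null minus control uses 4 other arrays of the same experiment. Of the 18820 genes, 118 (0.627%) were called higher and 40 (0.213%) lower in Ezh2 null than in control. Of the 56 genes higher in post-rescue, 52 lay above the control in the Ezh2 null, against 7810 of all 18820 genes. In the null 28 of the 56 were called higher, which is 50% of the 56 and 23.7% of the 118. Of the 23 lower genes, 8 were called lower in the Ezh2 null, or 34.8% of the 23 and 20% of the 40. Both differences use the same error estimate of each gene, from 1 fit, so the 2 calls of a gene are not independent. Across all genes the 2 differences correlated with Pearson's r = 0.52 and Spearman's rho = 0.32, a description over genes, which are not independent replicates.

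**Figure D3:**
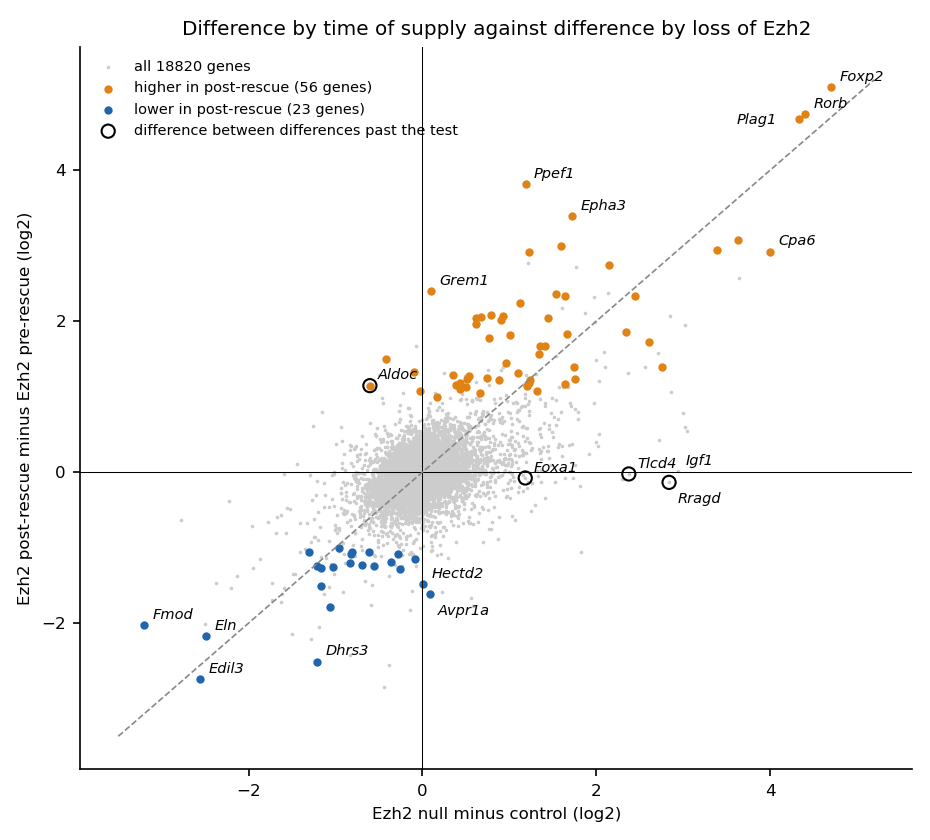
Each point is a gene, with Ezh2 null minus control on the horizontal axis and post-rescue minus pre-rescue on the vertical axis, both on the log2 scale. Orange and blue mark genes higher (56) and lower (23) in post-rescue, circles the 4 genes whose differences differed past the test, and the dashed line equal differences. Most orange points lie above 0 on both axes, and Grem1 stands near 0 on the horizontal axis.

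Most genes called higher in the Ezh2 null also had higher levels in post-rescue than in pre-rescue. Of the 118, 103 were above 0, against 8682 of all 18820 genes, and 40 by 2-fold or more, against 98. The median of the 118 was 0.66. Their median by loss was 1.45, which is not comparable in size because the genes were chosen on that difference. Their medians against the control were 0.13 in pre-rescue and 0.85 in post-rescue, and -0.57 in post-rescue against the null, values that share the control or null arrays that chose the genes. Of the 40 genes lower in the null, 2 were above 0 in post-rescue minus pre-rescue, against 8682 of all 18820 genes. None of the 40 was called higher, and their median was -0.72. Pre-rescue cells had 0 genes called against the control (limma, 1928 genes at an unadjusted p under 0.05). Post-rescue cells had 67 higher and 19 lower (1789 at an unadjusted p under 0.05). Against the Ezh2 null, post-rescue cells had 15 genes called higher and 33 lower (limma, 2592 at an unadjusted p under 0.05). At any p, 32 genes were 2-fold or more higher and 6 lower in pre-rescue than in control, against 130 and 49 in post-rescue.

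Genes chosen in the time course, on other arrays altogether, were compared in the same way. Day 32 after tamoxifen had 484 genes higher (2.57%) and 312 lower (1.66%) than vehicle. Of the 484, 421 were above 0 in post-rescue minus pre-rescue, against 8682 of all 18820, and their median was 0.31 against 0.56 for Ezh2 null minus control. Against the shared control the same 484 genes had medians of -0.06 in pre-rescue and 0.14 in post-rescue. The 23 genes at least 8-fold higher at day 32 had a median of 2.32 by time of supply and 2.31 by loss, 22 of them were above 0 and 16 by 2-fold or more. The 312 genes lower at day 32 had a median of -0.37 by time of supply and -0.49 by loss. Across all genes the time-course difference and the difference by time of supply correlated with r = 0.51 and rho = 0.40, again a description over genes.

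**Figure D4:**
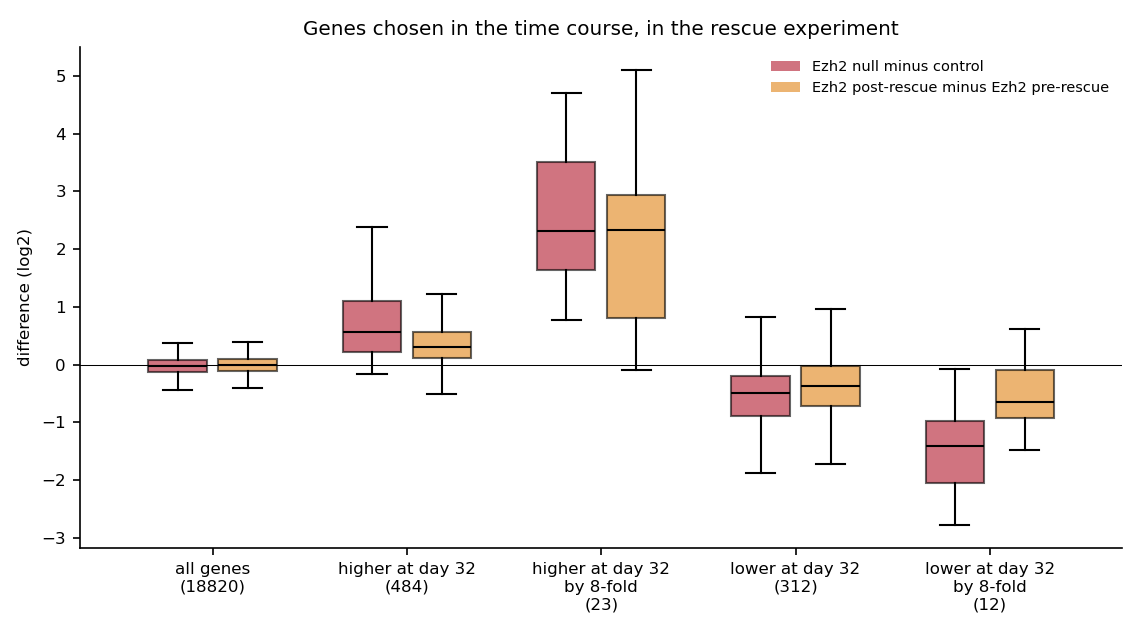
Boxes give the median and quartiles, and whiskers the range within 1.5 interquartile ranges, of the log2 differences of genes chosen by day 32 against vehicle, with the number of genes under each pair. In the 23 genes raised at least 8-fold at day 32 the medians were 2.31 by loss of Ezh2 and 2.32 by time of supply, while the 12 genes lowered at least 8-fold had medians of -1.41 and -0.64.

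Other genes that responded to the loss were at pre-rescue levels in post-rescue. The difference between the 2 differences was tested gene by gene and passed in 4 genes (0.0213% of those tested). Tlcd4, a membrane protein of the TLC domain family, was at 6.48 and 6.5 in the null, 4.16 and 4.06 in the control, 4.16 and 4.22 in pre-rescue and 4.19 and 4.15 in post-rescue, so its difference was 2.38 by loss and -0.02 by time of supply (difference of differences -2.40 ± 0.11, adjusted p = 0.00090). Rragd, a Rag GTPase that carries amino acid signals to mTORC1, was at 9.07 and 8.93 in the null and between 5.86 and 6.49 on all 6 control and Ezh2 rescue arrays (-2.97 ± 0.28, adjusted p = 0.043). Foxa1, a pioneer factor of endoderm, was 1.18 higher by loss and -0.08 by time of supply (-1.26 ± 0.12, adjusted p = 0.049). In the fourth gene, Aldoc, the directions opposed: 10.46 and 10.66 in pre-rescue against 11.49 and 11.92 in post-rescue, and 11.02 and 11.22 in the control against 10.47 and 10.57 in the null (1.75 ± 0.15, adjusted p = 0.041). This count changed from 4 to 26 without the replicate block and to 145 without control replicate 2, was 0 without the 30% of dimmest genes, was 1 without either pre-rescue replicate or without post-rescue replicate 2, and 24 and 32 without null replicate 1 and 2.

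Of the 118 genes higher in the null, 48 differed by less than 0.50 between post-rescue and pre-rescue, and of the 40 lower genes 11 did. A difference under this limit does not show that the levels were equal. The share of all genes under it was not computed. Igf1, a growth factor named after its values were seen, was at 9.87 and 8.58 in the null, 6.85 and 6.91 in pre-rescue and 7.0 and 6.78 in post-rescue, though its difference of differences missed the threshold (adjusted p = 0.15). Cdkn1a, the inhibitor p21, was at 8.25 and 7.95 in the null and 7.27 and 6.62 in the control, against 6.64 and 6.63 in pre-rescue and 6.32 and 6.46 in post-rescue (adjusted p = 0.13 for the difference of differences). Slit3, a guidance cue also picked after its values were seen, was 1.64 higher in the null and -0.08 ± 0.23 by time of supply, but both rescue groups, with means of 8.44 and 8.35, were near the null mean of 8.48 and above the control mean of 6.84. Hoxc5 had 1.55 ± 0.18 and Hoxb13 -1.09 ± 0.12 as difference of differences, with adjusted p of 0.059 and 0.054.

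The reverse case was a difference by time of supply without one of 0.50 or more in the same direction by loss. It was seen in 11 of the 56 higher genes (loss difference under 0.50) and 6 of the 23 lower genes (above -0.50). The 11 include Aldoc, which went the opposite way by loss, at -0.60. Grem1, an antagonist of bone morphogenetic proteins, was at 4.97 and 4.94 in pre-rescue, 6.97 and 7.73 in post-rescue, 5.13 and 4.82 in the control and 5.04 and 5.12 in the null, so of these 4 groups the post-rescue arrays stood apart (2.39 ± 0.22, adjusted p = 0.0059). Avpr1a, a vasopressin receptor, was at 8.88 and 8.72 against 6.92 and 7.45 (-1.62 ± 0.21) with 0.08 by loss, and Hectd2, a ubiquitin ligase, at 8.14 and 8.26 against 6.64 and 6.80 (-1.49 ± 0.15) with 0.01 by loss. The difference of differences did not pass in these 3 (adjusted p of 0.089, 0.13 and 0.089). Prss23, a serine protease, fell by 1.28 with -0.26 by loss, and the mean of its probe sets did not pass (adjusted p = 0.054). Car9, a hypoxia-induced carbonic anhydrase, rose by 1.18 with 0.43 by loss.

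**Figure D5:**
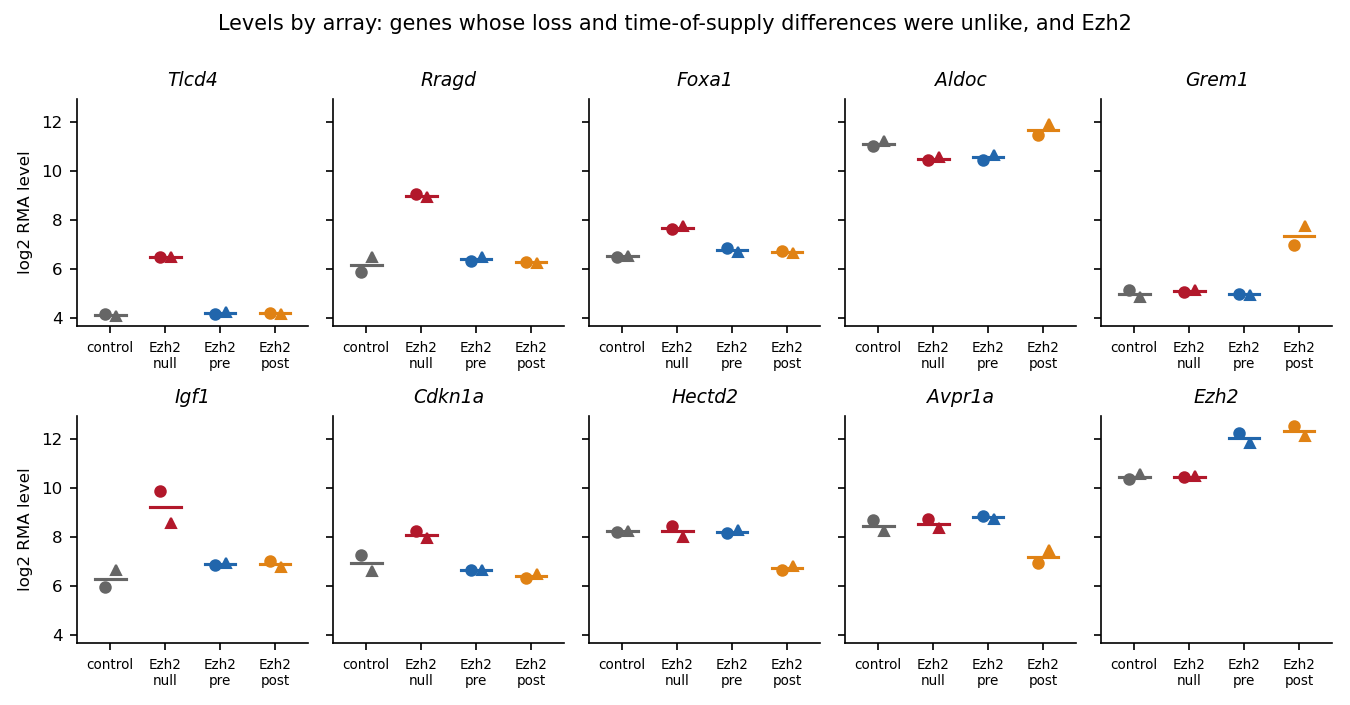
Log2 level (vertical axis) on each array of 4 groups (horizontal axis), with circles for replicate 1, triangles for replicate 2 and bars for means. Of the 4 groups, Tlcd4 and Rragd were highest in the null, Grem1 was highest and Hectd2 and Avpr1a were lowest in post-rescue, and Ezh2 was above 11.8 in both rescue groups.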

How the data were processed

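The series used here holds 18 Affymetrix Mouse Gene 1.1 ST arrays of C2 iMEFs, of which 10 form the rescue experiment and 4 are compared here. The deposited values are log2 intensities per probe set, which the authors made with RMA (package oligo). Their methods add a limma step that removes a batch difference between first and second replicates of the rescue arrays, and whether it is in these values is not stated in the labels. Of 28440 probe sets, 21217 had 1 gene symbol, 1881 several and 5342 none in the platform annotation. The brightest probe set of each gene was kept, which gave 18820 genes, 1386 of them with more than 1 probe set. For each gene, limma 3.58.1 in R 4.3.3 was fitted to the 10 rescue arrays with 1 mean per group and the replicate number as a block (4 residual degrees of freedom), with two-sided moderated tests and Benjamini-Hochberg adjustment over all genes. The difference of differences was a contrast in the same fit. Day 32 against vehicle was fitted on the 8 time-course arrays without a block. The scripts were tested on simulated data.

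Group sizes are 2 arrays, and this number limits the precision. The replicate numbers were checked for pairing: the deviations of arrays with the same number from their group means correlated between groups at -0.43 to 0.54 over 10 pairs of groups, 6 of them negative, and highest between Ezh1 and Ezh2 pre-rescue. A batch difference already removed from the values would by itself push such correlations below 0, so whether the numbers pair the arrays is not settled. The block was kept because the methods state a batch difference by replicate. The authors' RankProduct test was not run, and their threshold of adjusted p 0.15 with 2-fold was tried on limma's values. The text names Ezh1, Ezh2, Cdkn1a, Cdkn2a and Cpa6, the 15 genes that changed most in each direction at any fold past the adjusted threshold, up to 4 members of each of 39 gene lists by adjusted p and up to 10 genes by the difference of differences, without predicted genes, Riken clones and small RNAs, of which 1297 genes were left unnamed. Genes outside this rule are said to be chosen after their values were seen. The arrays, gene lists and members were chosen with earlier results of these data known. Promoter sequences are from RefSeq, GRCm38.p6.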

Additional observations from a re-analysis of the deposited data

Results flagged for a closer look

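In 4 genes the difference between post-rescue and pre-rescue differed from that between Ezh2 null and control by the test of the difference itself (limma, adjusted over 18820 genes). The difference of differences was -2.40 for Tlcd4, -2.97 for Rragd and -1.26 for Foxa1, genes that were higher in the null and near pre-rescue levels in post-rescue. It was 1.75 for Aldoc, which was lower in the null than in the control and higher in post-rescue than in pre-rescue.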

How the results depend on the processing

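No named gene changed direction past the test under the alternatives run. With the replicate number left out of the fit, the higher and lower genes numbered 75 and 39 and the difference of differences passed in 26 genes. All of the 56 higher and 23 lower genes were among those calls, and whether the replicate numbers pair the arrays is not settled. The 4 rescue arrays alone gave 96 higher and 86 lower genes with the block, and 95 and 85 without it. With crossed numbers, an alternative chosen after seeing the data, they gave 97 and 86. At any p, 98 genes were 2-fold or more higher and 86 lower. These fits thus passed almost all of them and could hardly reject a call. Median centring of each array gave 52 lower genes and 14 for the difference of differences, and quantile normalization 36 lower genes. The threshold of the methods gave 85 higher and 53 lower genes, and dropping the 2-fold limit 108 and 58. Leaving out each of the 4 compared arrays in turn gave 6 to 32 higher and 1 to 9 lower genes, on the assumption that the lone array varies like the other groups, and of the 56 named genes past the threshold 6 to 22 stayed past it. Leaving out control or null arrays, chosen after seeing the data for these counts, gave 72 to 78 higher and 53 to 66 lower genes. For the difference of differences, leaving out 1 array gave 1 to 145 genes. Without the 30% of dimmest genes it passed in 0 genes (limma, 1465 at an unadjusted p under 0.05), because Tlcd4 was left out as dim and Aldoc, Rragd and Foxa1 had an adjusted p of 0.065 over the 13174 genes left.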
